A study of Mus musculus with 3 samples.

Results

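Rest encodes the transcription factor REST, and the gene was examined here in the REST knockout ES cells themselves. The region is the Rest gene of the mm9 genome with 10 kb on each side, chr5:77684516-77725457, which holds 732 of the 21342492 CpGs of chromosomes 1 to 19, X and Y. Rest is 1 of 22367 protein-coding genes of the GENCODE annotation of that build. It was chosen because it is the targeted gene, so that its coverage bears on the knockout label of the library.

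The series holds 3 bisulfite sequencing libraries of mouse embryonic stem (ES) cells, in which unmethylated cytosines are read as thymines and methylated ones stay cytosines. The paper states that bisulfite leaves 5-hydroxymethylcytosine unconverted too, so observations called methylated here can include it. One library is whole-genome shotgun bisulfite sequencing (WG-BisSeq) of REST knockout cells from blastocysts of the strain Black Agouti 129. The other 2 libraries are replicates of CTCF ChIP-BisSeq, in which DNA bound by the insulator protein CTCF was immunoprecipitated before bisulfite treatment, from wild type cells of a mixed 129-C57Bl/6 background, each from DNA of 5 pooled ChIP experiments. Both lines were grown on feeder cells or on gelatine, and the labels do not say which was used for a library. Genotype, strain and assay thus differ together between the knockout and the wild type libraries and cannot be told apart. The knockout has 1 library and no replicate, and the way its allele was built is not given in the sources used here.

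REST, also called NRSF, is a zinc finger protein that represses neuronal genes outside neurons and in stem cells. It binds a long DNA motif and recruits corepressor complexes, through SIN3 proteins at its N terminus and through RCOR1 (CoREST), the histone demethylase KDM1A and histone deacetylases at its C terminus. Like many genes active in ES cells, Rest starts in a CpG island, a stretch of dense CpGs that is usually unmethylated.

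Coverage is given as observations per CpG, the number of reads that reported the state of a CpG. Without CpGs of more than 100 observations, a CpG had 7.88 observations on average in the knockout library, 0.596 in ChIP-BisSeq replicate 1 and 1.05 in replicate 2. Of all CpGs, 22.0% had no observation in the knockout library, against 87.6% and 66.9% in the ChIP-BisSeq replicates, so that an empty CpG says little in the latter. One read covers several neighbouring CpGs and PCR copies are not independent. The intervals, limits and p-values given for counts take each observation as independent. They are therefore likely too narrow or too small even for counting error, and they leave out variation between samples.

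Rest lies on the plus strand from 77694516 to 77715457 (ENSMUSG00000029249.8, 20942 bp) and has 3 annotated transcripts with 6 separate exons. Exon 1 (77694516 to 77694813) is untranslated. An alternative 5′ untranslated exon of the transcript Rest-002 follows (77695221 to 77695438). The coding sequence of 3246 bases starts in exon 2 (77696957 to 77697848), passes through exon 3 (77704259 to 77704342) and ends in exon 4 (77709728 to 77715457). A further exon of 32 bases in the transcript Rest-201 has no CpG and could not be measured.

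In the knockout library, 123 neighbouring CpGs of Rest had no observation at all. The first lies at 77695242, which is 726 bp after the gene start, and the last at 77697727, so that the CpGs span 2487 bp. They comprise 32 of the 35 CpGs of the Rest-002 exon, 53 CpGs of introns and 38 of the 41 CpGs of exon 2. The start codon at 77696966 and 762 of the 3246 coding bases (23.5%) fall inside. At the mean of the Rest flanks, 9.73 observations per CpG, these CpGs would have held 1197 observations. The upstream flank had a mean of 12.4 and the downstream flank 5.90. If observations are taken as independent, a count of 0 allows up to 3 observations, or 0.0244 per CpG, which is 0.251% of the flank mean.

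The same CpGs were covered in wild type cells. Replicate 1 had 88 observations at 35 of the 123 CpGs and replicate 2 had 381 at 109, and in both replicates together 113 CpGs (91.9%) had an observation. The mean of 3.81 observations per CpG in the pooled replicates is 1.56 times the mean of their own flanks. The stretch as a whole was therefore empty in the knockout library and in neither ChIP-BisSeq replicate, although these are much shallower. Most of the covered CpGs came from replicate 2, as replicate 1 left most of the 123 CpGs and the whole Rest-002 exon without an observation.

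The edges of the stretch can be placed only between CpGs. Upstream, the counts of the knockout library fell from 28 observations at 77695067 to 13 at 77695112, 5 at 77695143 and 1 at each of the 7 CpGs from 77695198 to 77695239. Downstream, the first covered CpG is 77697823 in exon 2, with 4 observations, and the next ones had 4, 4, 6 and 3. The uncovered interval is therefore at most 2583 bp long. Of the 100 CpGs before it, 0 lacked an observation and the mean was 21.6, while the 100 CpGs after it had a mean of 5.99 and 17 without an observation. Outside the interval, 40 of the other 609 CpGs of the locus (6.57%) had no observation, and the second longest empty run was 4 CpGs.

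**Figure D1:**
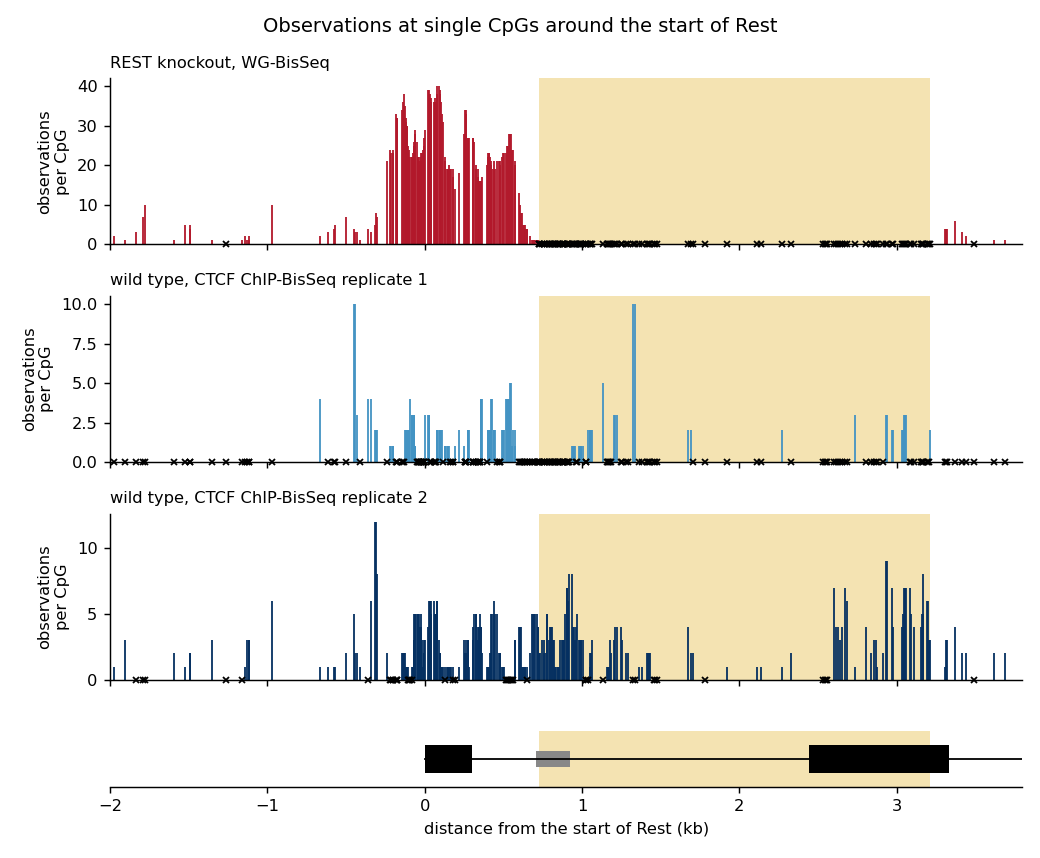
Observations at single CpGs (vertical lines) against the distance from the gene start, in kb, for the REST knockout library and both ChIP-BisSeq replicates, each with its own scale. Crosses mark CpGs with 0 observations, black boxes exons, the grey box the Rest-002 exon, and the shaded band the 123 CpGs that are empty in the knockout library and covered at 35 and 109 CpGs in replicates 1 and 2.

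The beginning of the protein is thus inside the empty stretch. The coding sequence from the start codon in exon 2, chr5:77696966-77697265 of mm9 on the plus strand, is shown with its CpGs in capitals. The knockout library had an observation at 0 of these 12 CpGs, replicate 1 at 1 (3 observations) and replicate 2 at 8 (36 observations).

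Start of the coding part of exon 2: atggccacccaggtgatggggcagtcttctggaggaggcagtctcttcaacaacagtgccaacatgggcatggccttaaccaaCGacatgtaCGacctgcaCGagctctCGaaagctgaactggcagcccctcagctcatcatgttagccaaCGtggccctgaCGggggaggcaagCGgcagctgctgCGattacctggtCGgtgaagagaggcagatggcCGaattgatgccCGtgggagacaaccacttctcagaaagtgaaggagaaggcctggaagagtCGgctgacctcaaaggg

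The downstream edge lies near the end of exon 2. In chr5:77697712-77697866, again on the plus strand with CpGs in capitals, the first 3 CpGs were empty in the knockout library and the last 3 had 4 observations each, while replicate 2 covered the whole set of 6. The sequence contains the exon 2 border and runs into intron 2.

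Downstream edge of the interval: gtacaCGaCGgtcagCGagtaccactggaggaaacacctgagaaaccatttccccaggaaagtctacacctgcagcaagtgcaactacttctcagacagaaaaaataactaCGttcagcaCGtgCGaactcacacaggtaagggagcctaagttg

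By region, 2 of the 5 exons with CpGs had a coverage of 0.25 or less of the Rest flanks in the knockout library. The same threshold was met by 15166 of 133800 exons of protein-coding genes (11.3%), and by 7.76% of the exons with at least 2 wild type observations per CpG, so that low coverage of an exon alone is common in this library. The Rest-002 exon had 3 observations at 3 of 35 CpGs, a mean of 0.0857 per CpG and a ratio of 0.00881 to the flanks. Exon 2 had 12 observations at its last 3 CpGs, a mean of 0.293 and a ratio of 0.0301. A ratio as low as that of exon 2 was found for 2366 exons (1.77%), and 2021 exons (1.51%) had no observation at any CpG.

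The wild type replicates did not share the low coverage of exon 2. Its ratio to the flanks was 1.01 in replicate 1, from 28 observations at only 11 of 41 CpGs. In replicate 2 it was 2.39, from 173 observations at 37 CpGs. The Rest-002 exon had 119 observations at 35 of 35 CpGs in replicate 2, a ratio of 1.92, but 0 observations in replicate 1, so that for this exon the difference from the knockout rests on replicate 2. The intron between these exons had 0 observations at 53 CpGs in the knockout library, 60 at 24 CpGs in replicate 1 and 109 at 43 CpGs in replicate 2.

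The other exons were covered in the knockout library. Exon 1, in the CpG island, had a mean of 29.7 observations per CpG at 39 of 39 CpGs, which is 3.06 times the flanks, against 1.59 and 1.51 times in the replicates. Exon 3 had 28 observations at 5 of 5 CpGs, a ratio of 0.575, near the 0.569 of intron 2 and the 0.606 of the downstream flank alone. Exon 4, which holds most of the coding sequence, had 1192 observations at 104 of 108 CpGs, a ratio of 1.13, close to the 1.25 and 1.20 of the replicates. Reads of exons 3 and 4 were therefore present in the knockout library.

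**Figure D2:**
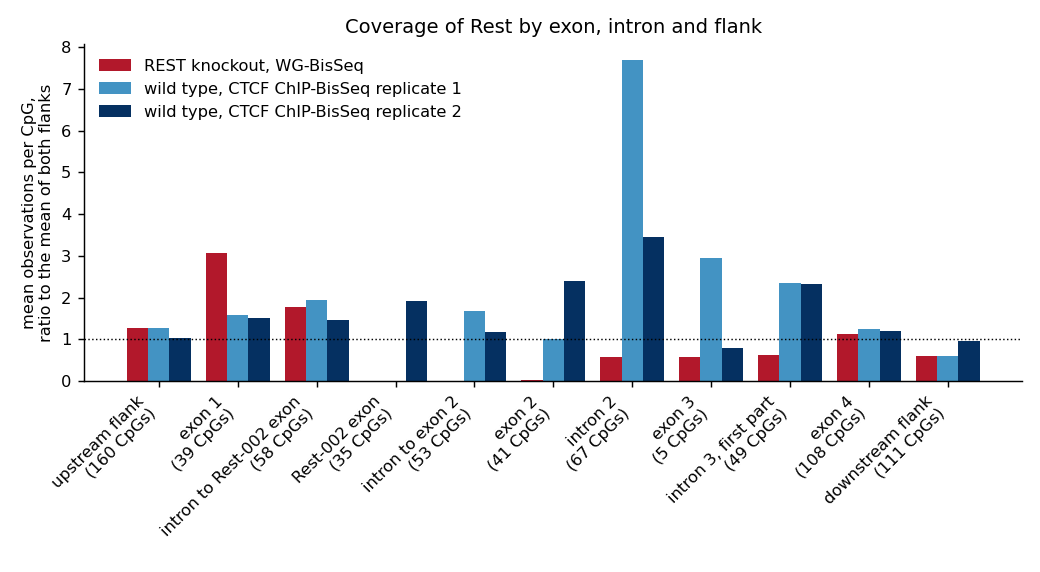
Mean observations per CpG in each part of Rest, as a ratio to the mean of both 10 kb flanks of the same library, with the number of CpGs of each part. In the knockout library the bars of the Rest-002 exon, the following intron and exon 2 lie at 0.00881, 0 and 0.0301, and intron 2 lies at 7.69 and 3.45 in the ChIP-BisSeq replicates, or at 6.22 in replicate 2 with the CpGs of more than 100 observations kept.

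Long empty runs and exons of low coverage also occurred elsewhere in the genome. Among runs of at least 30 CpGs, wild type observations at most of the CpGs were found only in Rest and on the Y chromosome. A run of at least 123 CpGs without a knockout observation was found in 389 of 22367 loci of protein-coding genes (1.74%). Rest was the only locus, 0.00447% of the 22367, where 80% or more of the CpGs of such a run had a wild type observation. The length limit is that of the Rest run itself, so Rest meets it by construction, and the 80% limit was not planned beforehand. These counts are therefore a description and not a test. Over the whole genome 764 runs were as long, with a median of 0% of CpGs covered in the wild type, and the highest value apart from Rest was 34.9%. Among the 9549 autosomal runs of at least 30 CpGs the highest value apart from Rest was 45.9%. With the sex chromosomes there were 10928 such runs, and 3 others had wild type observations at 80% or more of their CpGs. These 3 runs lie on the Y chromosome and the longest has 120 CpGs, 83.3% of them covered. On the Y chromosome 94.6% of CpGs had no observation in the knockout library, against 97.0% in replicate 1 and 90.9% in replicate 2. The knockout mean was 0.188 observations per CpG there, against 8.64 on chromosome 5. The means on these chromosomes were 0.184 and 0.656 in replicate 1, and 0.540 and 1.15 in replicate 2. The Y chromosome was thus low in the knockout library for its depth.

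**Figure D3:**
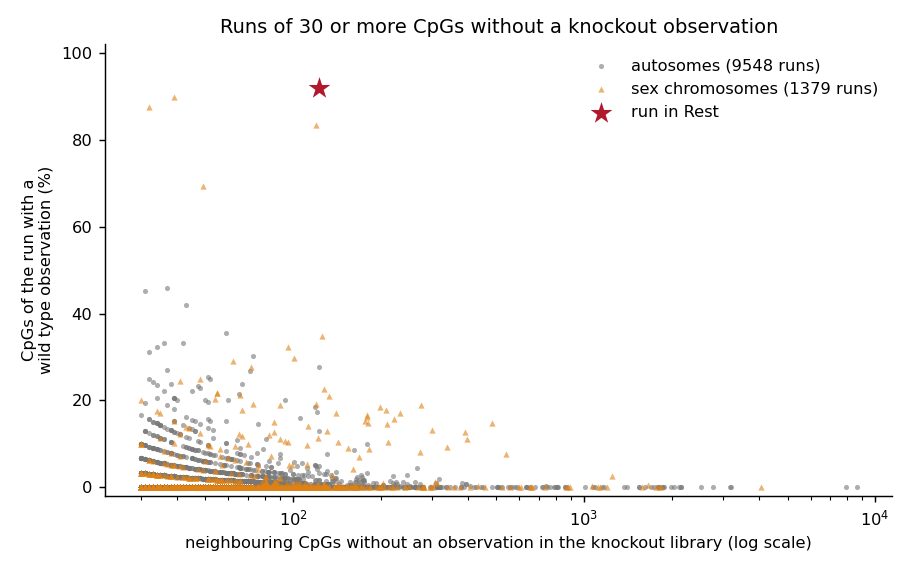
Each point is a run of at least 30 neighbouring CpGs without a knockout observation, by its number of CpGs (log scale) and the percentage of them with an observation in either ChIP-BisSeq replicate. The run in Rest lies at 123 CpGs and 91.9%, above the other autosomal runs, which reach 45.9%, and 3 runs of the Y chromosome lie between 83.3% and 89.7%.

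Methylation was low around the gene start in each library. Within 500 bp on each side of the start, 78 of 2994 observations were methylated in the knockout library, or 2.61% (95% exact interval 2.06% to 3.24%). In replicate 1, 2 of 170 were methylated, or 1.18% (0.143% to 4.19%), and in replicate 2, 14 of 345, or 4.06% (2.24% to 6.71%). The knockout value lies between those of the replicates. The difference from the wild type was 1.43 percentage points for replicate 1 and -1.45 for replicate 2, and neither passed the threshold (two-sided Fisher's exact test on the 2 libraries, Benjamini-Hochberg adjusted over 13574 promoters, adjusted p = 0.490 and 0.240). By the same test and a difference of at least 20 percentage points in both replicates, 0.847% of promoters were called higher and 0.597% lower in the knockout library.

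Single CpGs of the promoter showed the same low level. In the knockout library 115 of its 124 CpGs had at least 10 observations. Of these, 67 had no methylated observation, and 114 were below 20%, with the highest at 25.9% in exon 1. From the gene start to the empty interval, the knockout library had 2.59% of 2162 observations methylated, replicate 1 had 0.847% of 118 and replicate 2 had 4.49% of 267. The last 1 kb before the gene had 3.40%, 2.22% and 4.67%. Of the 20304 promoters with at least 10 observations in the knockout library 7.67% were less methylated than that of Rest, and the median was 8.90%.

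Inside the interval, methylation could be read only in the wild type. The 32 CpGs of the Rest-002 exon had 0 of 106 observations methylated in replicate 2, which has an exact interval up to 3.42%. In the following intron, replicate 1 had 8 of 60 observations methylated (13.3%) and replicate 2 had 1 of 109 (0.917%). In exon 2, replicate 1 had 10 of 28 methylated (35.7%, 18.6% to 55.9%) and replicate 2 had 21 of 166 (12.7%, 8.0% to 18.7%). Over the interval, the replicates had 20.5% (12.6% to 30.4%) and 5.77% (3.65% to 8.61%), so that their exact intervals did not overlap. The low methylation of the CpG island thus reached the Rest-002 exon in replicate 2, while in exon 2 the exact intervals of the replicates overlapped only at their edges.

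Methylation was higher behind the interval than at the gene start in each library. In intron 2 the knockout library had 33.4% of 371 observations methylated, replicate 1 had 28.0% of 350 and replicate 2 had 22.8% of 390, or 18.2% of 737 with the CpGs of more than 100 observations kept. Exon 3, with 5 CpGs, had 46.4% of 28, 100% of 10 and 85.7% of 7. In exon 4, 38.6% of 1192 observations were methylated in the knockout library (35.8% to 41.4%), 71.7% of 92 in replicate 1 (61.4% to 80.6%) and 49.8% of 229 in replicate 2 (43.1% to 56.4%). The exact interval of the knockout library thus lies below those of both replicates in exon 4, without a test of this exon.

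The parts of exon 4 differed from each other. In its coding part the knockout library had 35.1%, replicate 2 had 37.7% and replicate 1 had 72.2%. After the coding part, the knockout library had 44.6% of 437 observations methylated (39.9% to 49.4%), against 71.1% of 38 in replicate 1 (54.1% to 84.6%) and 82.3% of 62 in replicate 2 (70.5% to 90.8%). In the knockout library 59 CpGs of exon 4 had at least 10 observations, and 46 of these were between 20% and 80%, from 0% to 90.9% with a median of 35.3%. In this exon, replicate 1 had 0 such CpGs and replicate 2 had 1. Over the genome without CpGs of more than 100 observations, the knockout library was 54.4% methylated, replicate 1 46.0% and replicate 2 51.8%.

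In the flanks, methylation was higher away from the gene start. The downstream flank, which holds the end of 2610024G14Rik on the minus strand, had 63.5% of 655 observations methylated in the knockout library, 82.2% of 45 in replicate 1 and 69.3% of 189 in replicate 2. The upstream flank without its last 1 kb had 32.0% of 776, 57.1% of 49 and 37.1% of 140. The miRNA AC141469.1 in intron 2 contains no CpG.

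**Figure D4:**
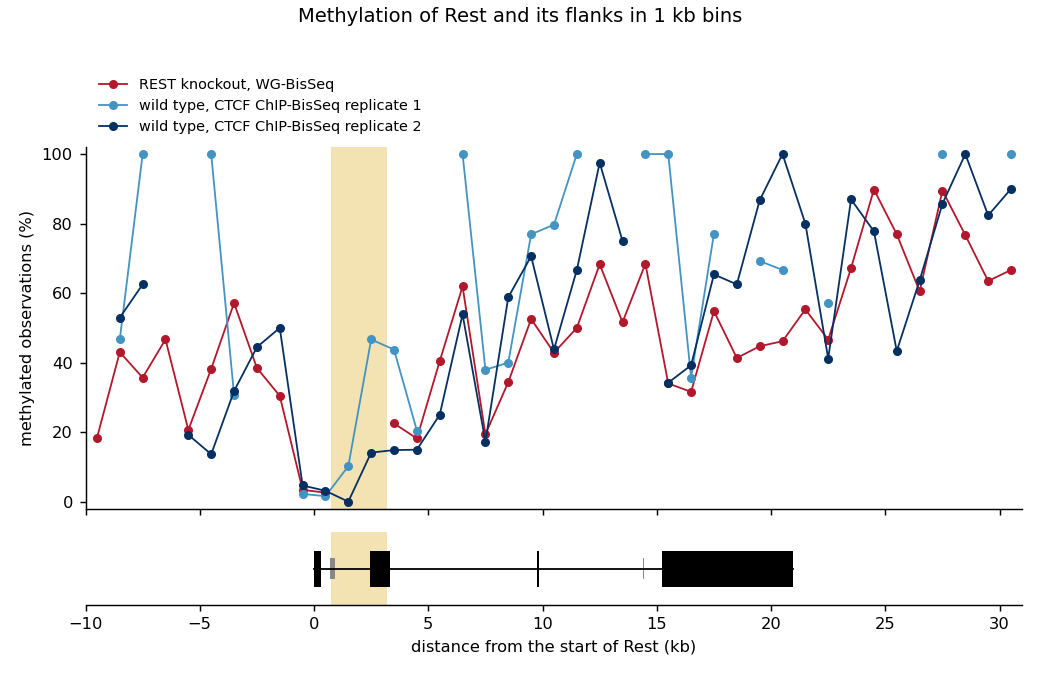
Percentage of methylated observations in bins of 1 kb along Rest and its flanks, against the distance from the gene start, for bins with at least 5 observations. Each library is below 5% in the bins next to the gene start, the knockout line is interrupted in the shaded interval without observations, where replicates 1 and 2 reach 46.7% and 14.1%.

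Over the gene body from 500 bp after the start, 34.5% of 2260 observations were methylated in the knockout library, 39.8% of 654 in replicate 1 and 27.7% of 1276 in replicate 2. The difference of the knockout library was -5.29 percentage points from replicate 1 and 6.73 from replicate 2 (two-sided Fisher's exact test on the 2 libraries, Benjamini-Hochberg adjusted over 17330 genes, adjusted p = 0.0228 and 8.57e-05). The signs were opposite and neither difference reached the minimal size required for a call, so no direction was called for Rest. Of all genes, 4.25% were called higher and 6.75% lower in the knockout library, with median differences of -7.82 and -6.67 percentage points. The sign for replicate 2 depended on the CpGs kept. The interval that is empty in the knockout library was left out in a choice made after seeing the data. Replicate 1 then had 42.8% and replicate 2 had 37.1%, and the knockout library was lower by 8.29 and 2.63 percentage points (adjusted p = 0.000639 and 0.216, same Fisher's exact test). With only CpGs covered in all 3 libraries, which also leaves out the interval, the difference from replicate 2 stayed positive, at 6.32 percentage points.

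Intron 2 contained the highest ChIP-BisSeq coverage of the locus. Within 300 bp at chr5:77698499-77698798, replicate 1 had 280 observations at 6 CpGs, replicate 2 had 536 and the knockout library had 32. The stretch contains an exact match to the CTCF core consensus on the minus strand, CGCCCTCTCCTGG, at 77698643 to 77698655, shown in capitals in the plus strand sequence, and 1 of the CpGs lies inside it.

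CTCF core match in intron 2: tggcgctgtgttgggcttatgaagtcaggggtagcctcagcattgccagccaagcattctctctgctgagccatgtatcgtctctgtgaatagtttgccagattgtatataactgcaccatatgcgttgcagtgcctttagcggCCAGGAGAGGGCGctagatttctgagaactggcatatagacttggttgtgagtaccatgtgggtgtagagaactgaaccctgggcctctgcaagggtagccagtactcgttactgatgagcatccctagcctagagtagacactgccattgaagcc

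The locus has 6 exact matches to the CTCF core on both strands, which overlap no other motif searched, and 47.8% of 62149 genome tiles of the same length hold at least 1. The other 5 matches had at most 14 observations in a ChIP-BisSeq replicate within 200 bp. The canonical REST consensus motif has 0 exact matches on either strand in the locus, and 0.521% of the tiles hold one. Its left part alone has 2 exact matches in the locus and its right part 11. The paper predicted REST motifs with a weight matrix and a variable linker, so exact matches at a fixed spacing do not cover all such sites.

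Summed over a short window at the CTCF core, methylation was higher in the knockout library than in either replicate, on few knockout observations. In the 200 bp around the match, with 4 CpGs and with CpGs of high coverage kept, 11 of 16 observations were methylated in the knockout library (68.8%, 41.3% to 89.0%), 42 of 235 in replicate 1 (17.9%, 13.2% to 23.4%) and 46 of 434 in replicate 2 (10.6%, 7.86% to 13.9%). At the CpG inside the match, 77698654, the methylated observations were 3 of 6 in the knockout library, 2 of 53 in replicate 1 and 1 of 87 in replicate 2. At 77698640 they were 4 of 5, 0 of 68 and 5 of 112, and at 77698623 they were 3 of 3, 14 of 75 and 11 of 131. At 77698577 they were 1 of 2, 26 of 39 and 29 of 104.

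The window differed by 50.9 percentage points from replicate 1 and by 58.2 from replicate 2 (two-sided Fisher's exact test on the 2 libraries, Benjamini-Hochberg adjusted over 7283 windows at CTCF core matches, adjusted p = 0.00042 and 5.13e-06). Of these windows 6.91% were called higher and 3.10% lower in the knockout library, so that Rest is 1 of 503 windows called higher. The median difference over all tested windows was 0.329 percentage points from replicate 1 and 3.71 from replicate 2. The test was added after seeing the data and compares libraries that differ in assay, genotype and strain. ChIP-BisSeq enriches for CTCF-bound molecules, while WG-BisSeq reads come from the whole population. At CTCF sites the paper reported similar average methylation in bound molecules and in the whole population of wild type cells. At sites of allelic CTCF binding, by contrast, it recovered only unmethylated alleles from bound molecules. It also described lower methylation of bound molecules at some single cytosines close to the motif, without a general trend by distance. The cause of the difference in Rest was not tested. In 400 bp the values were 29.7% of 37 observations, 24.3% of 301 and 11.6% of 578, and the difference from replicate 1 was 5.48 percentage points (adjusted p = 0.712, same Fisher's exact test), so the window was no longer called. At the next CpG, 77698750, 0 of 11 knockout observations were methylated against 10 of 19 and 16 of 59.

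**Figure D5:**
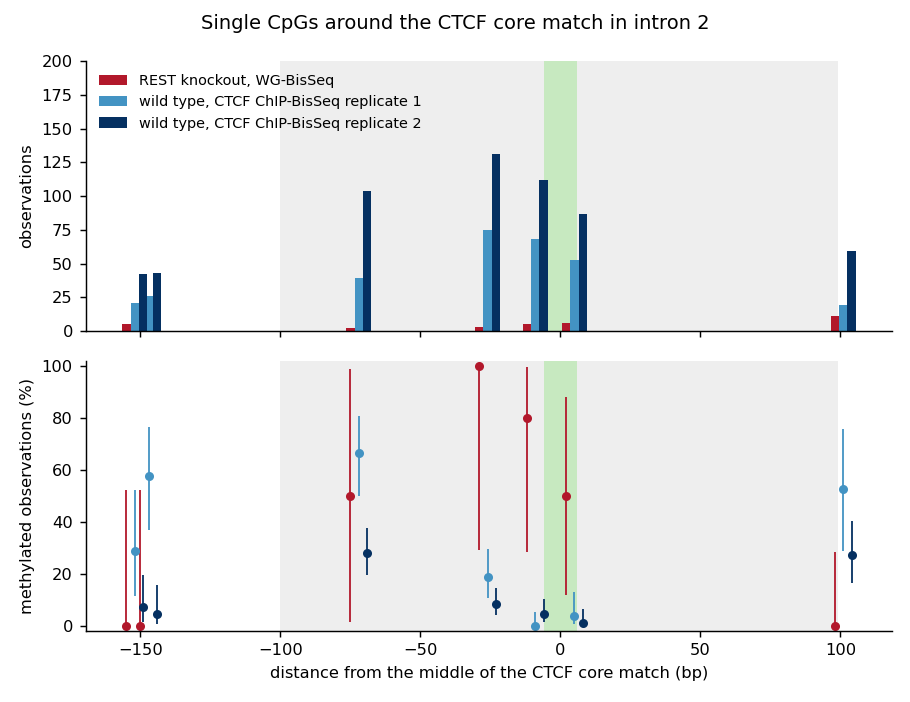
Observations (upper panel) and percentage of methylated observations with exact 95% intervals (lower panel) at the single CpGs within 200 bp on each side of the CTCF core match, by distance from its middle in bp. The green band is the match and the grey band the 200 bp window, in which the knockout library has 2 to 6 observations per CpG and the replicates 39 to 131.

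Corepressors of REST gave a comparison with other genes of the same pathway. The list holds the CoREST proteins Rcor1, Rcor2 and Rcor3, the demethylase Kdm1a, the scaffolds Sin3a and Sin3b, the deacetylases Hdac1 and Hdac2, the methyltransferase Ehmt2, the remodeller Smarca4 and the phosphatases Ctdsp1, Ctdsp2 and Ctdspl. The longest empty run in a locus of these 13 genes was 11 CpGs, against 123 in Rest. Of their 145 exons 22 (15.2%) had low coverage in the knockout library, against 11.3% of all exons.

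Promoters of the list were also weakly methylated. In the knockout library 12 of 13 were below 10%, against 52.4% of all promoters, from 2.07% in Ehmt2 to 10.6% in Ctdsp2 with a median of 4.61%. Of the 12 that could be tested, 0 were called in either direction (Fisher's exact test as above), beside 0.847% of all promoters called higher and 0.597% lower, a share at which a list of this size shows nothing particular. Kdm1a had 2.94% of 5406 observations methylated in the knockout library, 2.43% of 1443 in replicate 1 and 3.96% of 1794 in replicate 2. Ehmt2 had 2.07% of 1402, 7.46% of 67 and 32.7% of 98, a difference that the replicates did not share in size. Rcor2 could not be tested, with 3 observations in replicate 1.

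Promoters of cell type markers served as a check of the cell type. Among ES cell markers, Pou5f1 had 4.04% and Sox2 2.31% methylated observations in the knockout library, while Nanog had 16.7%, Tdgf1 12.4%, Zfp42 10.7%, Dppa5a 13.6% and Esrrb 74.0%. Among fibroblast markers, Col1a1 had 70.2%, Col1a2 62.1% and Prrx1 30.9%, while Thy1 had 6.19% and Twist2 4.28%. Col3a1 had 9 observations and gave no value. Of the 5 ES cell and 4 fibroblast promoters that could be tested, 0 were called (Fisher's exact test as above), beside the same 0.847% and 0.597% of all promoters, so that this count says nothing about the cell type. Promoter methylation does not measure expression, and the share of feeder cells in a library was not tested.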

How the data were processed

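The authors deposited, for each library, a list of mm9 CpGs with raw counts, the observations and how many of them were methylated, with no normalization. The submitters' processing notes name Bowtie 0.10.0.1 without its role. Strand handling and the treatment of PCR duplicates are not given in the sources used here. Counts were joined to the CpGs of mm9 (NCBIM37), and CpGs that are not listed were given 0 observations. Exons and genes are from GENCODE vM1, with overlapping exons merged. CpGs with more than 100 observations in a library were left out there, except at CTCF core matches, in 1 kb bins and in single CpG values. Exons needed at least 3 CpGs and flanks at least 20 CpGs with a mean of 2 observations. Coverage has no test, since the knockout has 1 library.

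Methylated counts were summed by region and compared between the knockout library and each wild type replicate by two-sided Fisher's exact tests with Benjamini-Hochberg adjustment over all regions with at least 10 observations in each of the 3 libraries. A region was called at an adjusted p under 0.05 and a difference of 20 percentage points or more in both replicates, with equal sign. These p-values compare libraries and take each observation as independent, so they are likely too small. Intervals are exact Clopper-Pearson 95% intervals. Genes named besides Rest are the corepressor and marker lists, genes overlapping the locus and the 5 genes with the most similar methylation profile. One gene of the planned corepressor list is not reported here. The region, the lists and the tests were chosen with earlier results of these data known. Scripts were tested on simulated data and used Python 3.11.15, NumPy 2.4.6, pandas 2.3.3, SciPy 1.17.1 and matplotlib 3.10.9. Alternatives were other flank lengths, coverage limits, windows and minimal observations, and leaving out each replicate.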

Additional observations from a re-analysis of the deposited data

How the results depend on the processing

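The interval without knockout observations does not depend on the flanks or on a threshold. Exon 2 kept a ratio of 0.0274 with flanks of 5 kb and 0.0317 with 20 kb, and with medians in place of means the ratios of exon 2 and the Rest-002 exon were 0. Exons of low coverage numbered 6409 of 89926 (7.13%) with at least 5 CpGs and 35113 of 133800 (26.2%) with a ratio of 0.5 or less. As the mean of CpGs with at least 10 observations, gene body methylation was 31.2% in the knockout library, 41.2% in replicate 1 and 42.5% in replicate 2. The knockout library was thus below both replicates in this setting, without a test. With at least 5 observations the means were 35.3%, 48.5% and 29.5%, and the knockout library again lay between the replicates. The gene body of Rest was compared again with CpGs covered in all 3 libraries, a choice made after seeing the data. The differences were -5.86 percentage points from replicate 1 and 6.32 from replicate 2 (Fisher's exact test, adjusted p = 0.140 and 0.10). These CpGs exclude the empty interval, so the difference from replicate 2 stayed positive without it. With only the interval left out, that difference was -2.63 percentage points, so its sign depended on the CpGs kept. Promoters called lower were 36 of 12125 tested with at least 20 observations and 31 of 11723 tested with shared CpGs. Leaving out replicate 1 gave 251 promoters called higher and 543 lower of 15884 tested. Gene bodies were then 992 higher and 2237 lower of 18659, and CTCF windows 884 higher and 537 lower of 9085. Leaving out replicate 2 gave 248 promoters higher and 593 lower of 13922. Gene bodies were then 1484 higher and 3718 lower of 17436, and CTCF windows 675 higher and 797 lower of 7549. In both settings only 1 replicate had to pass. With 100 bp, 373 CTCF windows were called higher and 99 lower of 5083 tested. With 400 bp, 862 were called higher and 533 lower of 11648, and Rest differed from replicate 1 by 5.48 percentage points. With at least 20 observations, 289 were called higher and 127 lower of 4164, and the Rest window could not be tested. The number tested thus changed with the setting. No call for Rest at the promoter or gene body was gained under the alternatives run. The genome marks no repeats, so the alternative without repeats was not run, and the alternative of the longest transcript gave no value for the Rest-002 exon. No paired analysis was possible because the knockout has 1 library and shares no replicate pairing with the wild type. Depth limits the wild type values, with 0.679 and 1.77 observations per CpG in the flanks, and the knockout value at the CTCF core, which rests on 16 observations.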

Other observations

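The knockout methylation profile of Rest was compared with that of 13688 other protein-coding genes, over 20 equal bins of the gene and 5 bins of each flank. The genes with the most similar profile were Mpzl3 (Pearson's r 0.79), Abi1 (0.78), Smad7 (0.77), G3bp1 (0.76) and Plag1 (0.76), with 27 bins compared. The median over all genes compared was 0.31, and 0 genes exceeded 0.8. The r is across bins within 1 library, and the bins of different genes share its depth and the usual low methylation at gene starts, so it is given as a description.

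A second stretch with high ChIP-BisSeq coverage lies in intron 3, between 77705046 and 77705344, and holds 0 matches to the CTCF core. At 77705072, 0 of 1 knockout observations, 14 of 18 observations of replicate 1 and 2 of 26 of replicate 2 were methylated, and at 77705330 the values were 1 of 3, 12 of 16 and 16 of 20. The replicates were thus far apart at the first of these CpGs and close at the second.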
